A study of Homo sapiens with 6 samples.

Results

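Deep intronic positions were the bases listed in the 2 mutation tables of chromatin-associated RNA (caRNA) that fell inside introns of protein-coding genes, on the strand of the gene, in no exon and no small RNA gene, and over 1000 nt from every annotated splice site. Of 387463 listed positions, 118128 met this rule in the GENCODE release 44 annotation of hg38. The rule leaves out 8 genes, among them A2M, APOB and FN1. The imbalanced dNTP table held 41381 of the members, 23.5% of its positions, and the balanced dNTP table held 78801, 31.9% of its positions, with 2054 members in both.

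The libraries were Nm-mut-seq of caRNA from HepG2, a human liver cancer cell line, with 3 replicates. After ligation, each replicate was reverse transcribed in both ways. The balanced mix, the input, held 1 mM dATP with the other nucleotides at 1000 µM, and the imbalanced mix held 1 mM dATP with the others at 2 µM. Ribosomal RNA and RNA under 200 nt had been removed before. At a 2′-O-methylated base (Nm) the imbalanced mix favours a misread, so that G, A or C appears as T. Read counts were deposited for each position, and the quantity used here was the number of reads with T over the depth (T/N). Of 9 hepatocyte marker genes 7 held listed positions in the imbalanced table, up to 1122 in AFP, and TTR and FGB held 0. None of 7 markers of blood, glia and fibroblasts did.

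2′-O-methylation is set on ribosomal and small nuclear RNA mainly by fibrillarin, which is guided to its target by box C/D snoRNAs, and on mRNA caps by dedicated enzymes. Deep intronic sequence is transcribed and removed with the intron, so in caRNA it is read mostly from nascent or newly spliced transcripts that have not left chromatin. Introns also hold many inserted copies of ribosomal, snRNA and snoRNA sequence, the remains of reverse-transcribed transcripts, and a short read from the true RNA can map to such a copy. A site was called here when it had a depth of at least 10, at least 3 reads with T and a T/N over 3-fold that of its input, in each of the 3 replicates. Input T/N was taken as 0 where the balanced table did not list the position.

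The following windows carry the main contrast. The first is the densest run of called sites in TGFBR2, the type II receptor of TGF-β, at chr3:30625338-30625554 (plus strand, hg38), where the 6 called bases are in capitals. The windows of AFP, the fetal plasma protein that HepG2 still makes, at chr4:73446197-73446315 (plus strand), and of single called bases in HLF, HNRNPC and HMGCS1 stand for sites in sequence that resembles no structural RNA. All are written 5′ to 3′ on the strand of the gene with called bases in capitals.
TGFBR2 intron 1: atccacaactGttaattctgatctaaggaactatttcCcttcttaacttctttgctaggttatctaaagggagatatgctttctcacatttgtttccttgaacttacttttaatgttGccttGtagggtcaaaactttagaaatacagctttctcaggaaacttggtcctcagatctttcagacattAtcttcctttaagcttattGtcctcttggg
AFP: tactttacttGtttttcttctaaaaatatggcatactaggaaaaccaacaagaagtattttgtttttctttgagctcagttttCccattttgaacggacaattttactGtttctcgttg
HLF, chr17:55293264-55293294 (plus strand): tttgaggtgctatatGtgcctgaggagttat
HNRNPC, chr14:21266403-21266433 (minus strand): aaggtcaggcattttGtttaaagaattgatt
HMGCS1, chr5:43306017-43306047 (minus strand): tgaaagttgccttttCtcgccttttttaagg

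The next windows stand for sites in copies of structural RNA, each followed by the stretch of the RNA it aligned to, with the bases that face the called sites in capitals. They are shown because the capitals crowd together, as they do nowhere in the TGFBR2 window. The ZBTB44 window lies at chr11:130304642-130304699 (minus strand), the CEP85 window at chr1:26246771-26246831 (plus strand), and both aligned to the U3 snoRNA gene SNORD3A at chr17:19188023-19188090 (plus strand), the former over 68 nt with 91.2% identity and the latter over 64 nt with 90.6% identity. The ANKRD30BL window lies at chr2:132255560-132255683 (minus strand) and aligned to the 18S part of the 45S pre-rRNA over 143 nt with 95.8% identity.
ZBTB44: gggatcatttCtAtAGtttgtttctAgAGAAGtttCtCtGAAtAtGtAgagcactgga
U3 facing ZBTB44: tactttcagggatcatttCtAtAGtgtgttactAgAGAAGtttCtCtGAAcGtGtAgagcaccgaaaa
CEP85: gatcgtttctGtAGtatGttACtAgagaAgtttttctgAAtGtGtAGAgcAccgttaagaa
U3 facing CEP85: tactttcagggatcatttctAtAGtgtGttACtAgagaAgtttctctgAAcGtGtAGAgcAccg
ANKRD30BL: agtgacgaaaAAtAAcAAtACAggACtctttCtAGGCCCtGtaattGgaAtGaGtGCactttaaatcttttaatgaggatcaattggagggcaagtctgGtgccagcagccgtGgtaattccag
18S facing ANKRD30BL: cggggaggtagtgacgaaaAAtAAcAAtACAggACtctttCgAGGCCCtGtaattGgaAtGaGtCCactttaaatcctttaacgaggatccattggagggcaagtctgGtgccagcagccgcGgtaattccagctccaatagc

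Deep intronic RNA was covered thinly and came from a small set of long transcripts. The median depth of its listed positions was 10, 9 and 14 reads in imbalanced replicates 1, 2 and 3, against 17, 15 and 23 over the whole table and 11, 10 and 16 at intron edges, the intronic positions within 1000 nt of a splice site. In the balanced libraries it was 11, 8 and 10 reads. Deep intronic positions held 2.65 to 3.07% of the summed depth of the imbalanced table, and 68.2% of them had a depth under 10 in at least 1 imbalanced library. A depth of 10 in all 3 was reached by 13173 positions and a depth of 50 by 274.

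The imbalanced positions lay in 795 genes or pairs of overlapping genes, of 16121 protein-coding genes with any deep intronic sequence, and 16 of them held at least 50% of all positions, while 242 held 1 position each. GMDS, which makes GDP-fucose from GDP-mannose, was covered most widely, with 3092 imbalanced and 4900 balanced positions spread over 590 kb. It was followed in the imbalanced table by TGFBR2 with 2683 positions, EML4, a microtubule-binding protein, with 1987, the syntrophin gene SNTB1 with 1692 and EHBP1, which links endocytic vesicles to actin, with 1543. In the balanced table LRMDA, a gene linked to pigment cell differentiation, came next after GMDS with 2840 positions. SEC14L1, of which the study probed an intron, had 0 deep intronic positions in the imbalanced table. How many cells transcribed a gene and how much RNA each cell held cannot be told apart here.

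Positions lay at a median distance of 5926 nt from the nearest splice site, with quartiles of 2554 and 15514 nt and a maximum of 138290 nt. First introns of the canonical transcripts held 40.7% of the imbalanced positions in canonical introns, and 26.6% of the deep sequence of the same genes. In EML4 the first intron held 1457 of 1987 positions, in SNTB1 1452 of 1692 and in TRIM24, a coregulator of nuclear receptors, 906 of 1081. The first intron of TGFBR2 held 2071 of 2683. Other genes differed, as the first intron of GMDS held 716 of 3092. Intron 2 held 1353 of 1360 positions in HLF and all 1145 in LRMDA.

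By these depth, T read and input criteria, which lack the spike-in background criterion of the study and set the input of 501 sites to 0, 546 of the 13173 deep intronic positions with a depth of 10 were called, or 4.14% (Wilson 95% interval 3.82 to 4.50%), against 26.7% of all 110980 listed positions of that depth. Deep intronic sites were 1.84% of all 29651 called sites. At intron edges 413 of 6622 positions were called, or 6.24% (Wilson 95% interval 5.68 to 6.84%). By lowest depth, the called shares were 1.87% in deep introns and 2.35% at edges at 10 to 19 reads. They were 10.5 and 9.16% at 20 to 49 and 48.5 and 60.8% from 50 on. Among positions that resembled no structural RNA, deep introns were lower in each band. The shares there were 1.78 against 2.36%, 8.62 against 8.90% and 29.4 against 61.1%. With the imbalanced and balanced libraries exchanged, 87 of 21353 deep intronic positions met the same criteria. A position entered the balanced table with 1 read with T and the imbalanced table with 3. The 21353 thus admit positions with fewer reads with T than the 13173 do, and the shares of both are not alike. The count of 87 itself required 3 reads with T in each balanced library, with an unlisted imbalanced T/N taken as 0. The Wilson intervals cover counting error of positions alone, and neighbouring positions share reads.

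Few positions passed in all 3 replicates, which was open only to the 13173 of 41381 with a depth of 10 in each. Listing itself required 3 reads with T in at least 1 library, so passing in 1 replicate was partly set by it. The criteria were met in replicates 1, 2 and 3 by 8739, 6501 and 18939 positions, and by 30574 in at least 1 of them. Replicates 1 and 2 shared 994 of them, 1 and 3 shared 1757, and 2 and 3 shared 1400. The requirement for 3 reads with T in each library sets a floor under T/N that falls as depth rises, so a position covered by 10 reads passed only with a T/N of 30% or more in that library.

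Called sites had a median lowest depth of 25 reads, with quartiles of 16 and 47.8. Their mean T/N had a median of 15.9% and quartiles of 10.3 and 22.2%, and its SD over the 3 replicates had a median of 3.98 percentage points. Of the 546 sites, 43 had a mean T/N under 5%, 85 from 5 to 10%, 240 from 10 to 20%, 147 from 20 to 45% and 31 of at least 45%. Only 45 of the sites were themselves listed in the balanced table. A further measure of input coverage is a listed balanced position within 100 nt, which 465 sites had and 81 lacked.

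The called sites lay in 95 genes or pairs of overlapping genes, 42 of which had 1 site, and 15 of which held 65.4% of all sites. These 15 fell into 7 genes whose sites resembled no structural RNA and 8 whose sites all lay in copies of one. A structural RNA match was a stretch of at least 50 nt with at least 85% identity in the sequence within 50 nt of the site on either side.

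TGFBR2 led the unmatched genes with 77 called sites in 49 loci, 72 of them in the first intron, which runs from chr3:30606978 to chr3:30644746. The summed T/N of its called sites was 16.2, 17.2 and 13.4% in imbalanced replicates 1, 2 and 3. Its 2135 positions of depth 10 gave a called share of 3.61%. Its locus with most sites, printed above, held 6 at 16.1, 16.5 and 12.6%. Within 100 nt of them 20 balanced positions were listed, none at a called base.

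HLF, a bZIP transcription factor of the circadian PAR family in liver, had 37 called sites, all in intron 2 and 33 of them at G. Their summed T/N was 16.5, 18.97 and 15.6%. The HLF base printed above had 4 of 25, 6 of 15 and 8 of 34 reads with T, with replicate 2 the highest at 40.0% and replicate 1 the lowest at 16.0%. FGL1, a fibrinogen-related protein secreted by hepatocytes, had 43 called sites at 10.3, 11.2 and 9.68%, and its called share of 9.60% of positions of depth 10 was the highest of the 7 unmatched genes. None of the 43 lay in an intron of the canonical FGL1 transcript, 31 lay within 1000 nt of a splice site annotated on the opposite strand, and 12 met the rule when annotation of both strands was applied.

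EML4 had 22 called sites at 20.6, 18.3 and 15.5%, 19 of them in intron 1. The kinase gene CDC7, which fires replication origins, had 21 sites at 12.7, 13.4 and 12.1%, all in its intron 2 of 6.02 kb, where 11 formed a locus at chr1:91503511-91503842. SNTB1 had 16 sites at 18.97, 21.0 and 16.1%, and TRIM24 10 sites at 22.4, 19.8 and 15.2%. Replicate 3, the deepest of the imbalanced libraries, gave the lowest summed T/N in 7 of the 7 unmatched genes and in 2 of the 8 matched ones.

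**Figure D1:**
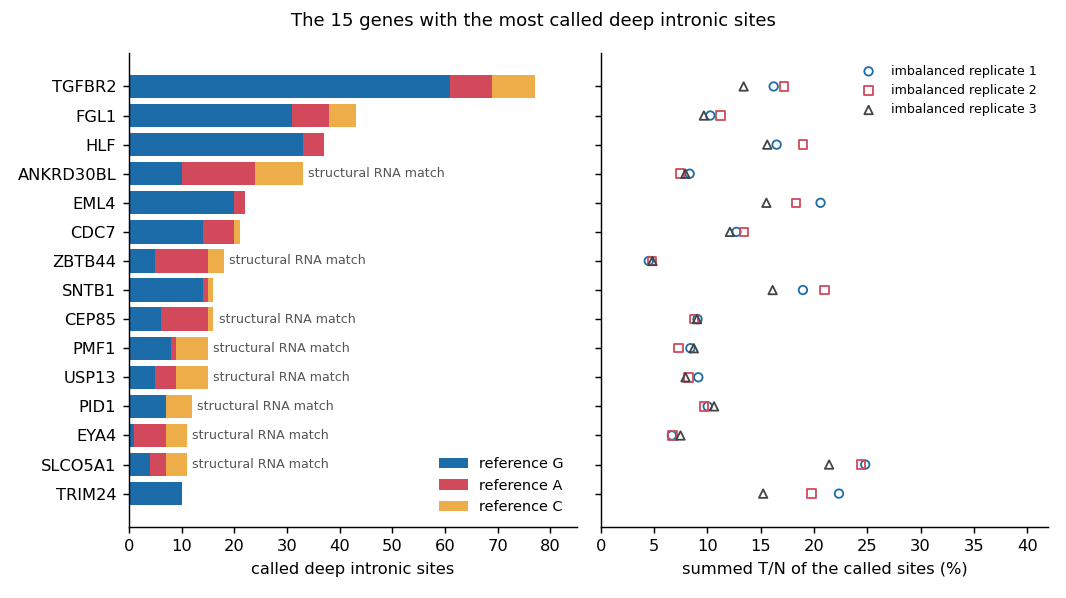
Left, number of called deep intronic sites by reference base in the 15 genes with most sites, with genes whose sites lie in structural RNA copies marked; right, summed T/N of those sites in percent, 1 symbol per imbalanced replicate. TGFBR2 had 77 sites, 61 of them at G, and its 3 replicates lay between 13.4 and 17.2%.

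Of the widely covered genes, TGFBR2, EML4 and SNTB1 had the 77, 22 and 16 called sites given above, while others gave few. GMDS had 8 called sites among 653 positions of depth 10 (1.23%), EHBP1 1 among 313 (0.319%) and LRMDA 0 among 106. Over all unmatched deep intronic positions of that depth 2.90% were called. In GMDS the summed T/N of the 8 sites was 26.1, 25.2 and 21.5%, above that of each of the 7 unmatched genes with most sites in 3 of 3 replicates, and their median lowest depth was 11 reads. At that depth the floor of 3 reads with T lies at 27.3% in the library concerned, and its part in these values was not tested.

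Along the genes, called sites were set beside listed positions. In TGFBR2 the third intron held 486 listed positions and 4 called sites, against 2071 and 72 in the first. In SNTB1 the first intron held all 16 called sites and 1452 of 1692 listed positions, and in TRIM24 all 10 and 906 of 1081. With so few sites, these counts do not stand apart from the spread of listed positions. In CDC7 all 305 listed positions and all 21 called sites lay in intron 2, over a stretch of 3.81 kb.

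**Figure D2:**
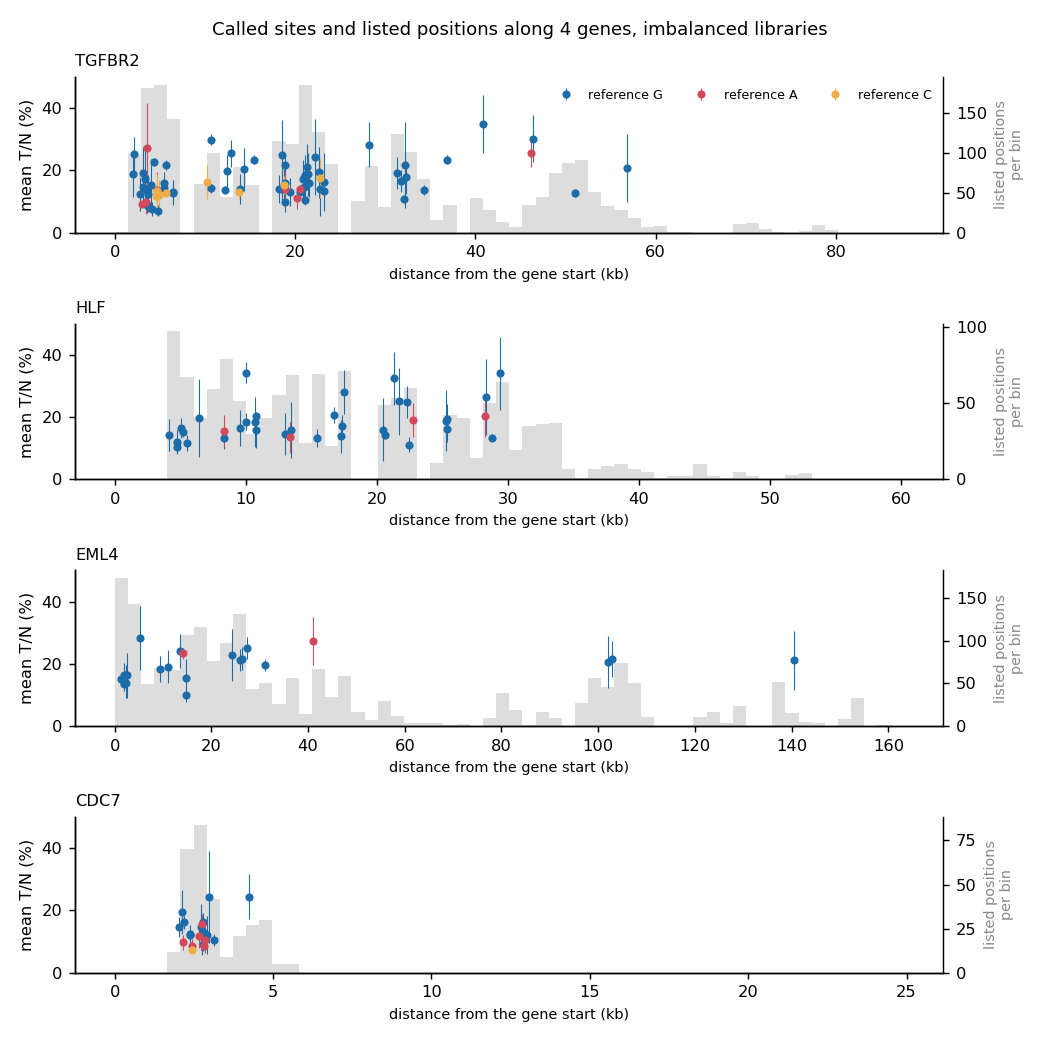
Mean T/N in percent of each called site (points, coloured by reference base, with the SD over 3 imbalanced replicates as bars) and number of listed imbalanced positions per bin (grey) against the distance from the gene start in kb, for TGFBR2, HLF, EML4 and CDC7. The 77 TGFBR2 sites and the 21 CDC7 sites lie where the grey bars are.

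Beyond the genes with most sites, some others were picked out after their values had been seen. HNRNPC, a nuclear protein that binds U-rich introns, had 9 called sites at 19.2, 14.9 and 13.4%. HMGCS1, the cytosolic HMG-CoA synthase of sterol synthesis, also had 9, at 19.4, 23.6 and 16.1%. NKD1, an inhibitor of Wnt signalling, had 8, at 21.1, 20.0 and 12.3%.

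Signalling and survival genes followed with fewer sites. TGFBR3, the co-receptor betaglycan, had 6 at 23.2, 21.7 and 20.0%. BCL2L1, which encodes the survival protein Bcl-xL, had 5 at 18.02, 26.6 and 21.9%. ERRFI1, a feedback inhibitor of the EGF receptor, had 5 at 18.8, 14.4 and 18.8%. The replicates of BCL2L1 overlapped those of the other two, while those of TGFBR3 lay above those of ERRFI1. LARP4, an RNA-binding protein that protects poly(A) tails, had 6 sites in 1 locus at 13.2, 13.9 and 11.8%.

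The gene lists were drawn up with earlier results known, so their shares describe these genes and support nothing further. As background, 5.18% of protein-coding genes with deep intronic sequence held a listed imbalanced position and 0.614% held a called site. Liver plasma proteins and lipid carriers held listed positions in 10 of 26 genes and a called site in AFP alone, whose 3 sites had 21.6, 14.1 and 21.4%. Enzymes and transporters of liver metabolism held listed positions in 13 of 36 genes and called sites in HMGCS1, ACSL3, which activates long-chain fatty acids, and SLC38A2, an amino acid transporter. Liver transcription factors and nuclear receptors held them in 7 of 22, HNF4A and PROX1 included, with no called site.

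Chromatin, splicing and RNA-binding proteins held listed positions in 22 of 40 genes, the largest share of the 6 lists, and called sites in HNRNPC and TNRC6A, a partner of Argonaute. Adhesion, cytoskeleton and growth signalling genes held listed positions in 14 of 37, with called sites in MAGI1, a junctional scaffold, and ROBO1, a receptor for Slit. Genes of very long introns at common fragile sites held them in 7 of 20, and called sites lay, among others, in CTNNA3, a catenin of cell junctions, and PDE4D, a cAMP phosphodiesterase. The CTNNA3 sites all lay in a copy of 28S rRNA sequence.

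Structural RNA copies held 180 of the 546 called sites, or 33.0%, but 1.89% of the listed imbalanced and 2.13% of the listed balanced deep intronic positions. Of positions with a depth of 10, 34.6% of the 379 with an rRNA match, 45.7% of the 94 with a snoRNA match and 2.90% of the 12637 with no match were called. The sites in copies were deeper, with a median lowest depth of 57 reads for rRNA and 183 for snoRNA against 19 without a match. Their median T/N was lower, 9.77% for rRNA and 6.47% for snoRNA against 17.6%. At a depth of at least 50, 113 of 133 called sites had a structural match.

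Input coverage near the sites differed between the classes. At the sites with a balanced position within 100 nt, the balanced depth there was a median 1.31 times the imbalanced depth of the site where there was no match. It was 0.224 times for rRNA copies and 0.0253 times for snoRNA copies. The snoRNA value rests on 24 of 43 sites, of which 0 were listed in the balanced table, so both depths came from different bases. CEP85 and USP13 had no listed balanced deep intronic position at all. ZBTB44 had 3, with median depths of 11, 10 and 6 reads in balanced replicates 1, 2 and 3. Its called sites had 672, 546 and 440.5 in the imbalanced libraries. The balanced position nearest to its called base at chr11:130304654 was 56 nt away, outside the run of called sites. Within that run the lowest imbalanced depth itself ranged from 96 to 597 reads. The part of such local changes of depth in the contrast was not tested. The authors kept reads that mapped to as many as 4 places, and 107 of the called sites, 96 of them with an rRNA match, had another copy in the genome of at least 90 nt and 90% identity. Whether reads at these sites came from the intron or from the structural RNA was not tested.

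**Figure D3:**
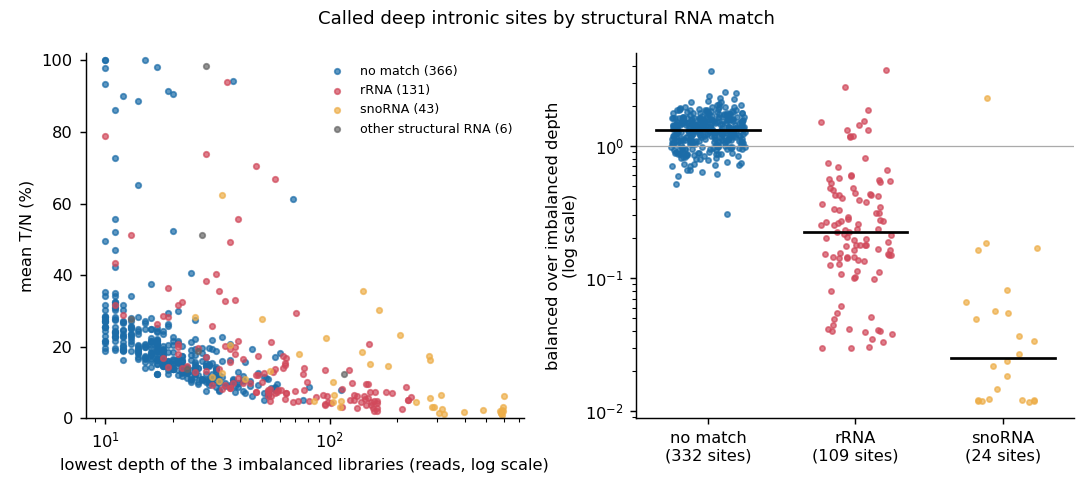
Left, mean T/N in percent of each called site against its lowest depth over the 3 imbalanced libraries (reads, log scale), coloured by structural RNA match; right, depth of the nearest balanced position within 100 nt over the imbalanced depth of the site (log scale), with medians as bars. Medians were 1.31 without a match, 0.224 for rRNA and 0.0253 for snoRNA copies, and unmatched sites follow the falling floor set by 3 reads with T.

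Joined over gaps of up to 100 nt, the called sites formed 274 loci. Of these 200 were single sites, 52 held 2 or 3, 12 held 4 to 9 and 10 held at least 10. The 10 largest held 159 sites, 29.1% of all, and 7 of them lay in structural RNA copies. Another called site lay within 10 nt of 93.0% of the snoRNA-like sites and 84.7% of the rRNA-like sites, against 16.1% of the sites with no match. Among loci of more than 1 site the median density was 17.9 sites per 100 nt in 25 matched loci and 5.41 in 49 unmatched ones.

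The locus with most sites, 27, was the 18S copy in ANKRD30BL, an ankyrin repeat gene, at chr2:132255570-132255673. Its sites had a summed T/N of 6.52, 6.21 and 7.05%. None of the 33 called sites of this gene lay in an intron of its canonical transcript. The next was an unmatched locus of 24 sites in FGL1 at 9.38, 11.3 and 9.46%, with 58 balanced positions within 100 nt. The U3 copy in ZBTB44, a zinc finger protein, held 18 sites at 4.51, 4.81 and 4.86%, and the one in CEP85, a centrosomal protein, held 16 at 9.08, 8.77 and 9.03%. The locus in USP13, a deubiquitinase, at chr3:179779635-179779678 aligned to 28S and held 15 sites at 9.16, 8.26 and 7.96%. The 3 replicates of each of these loci lay within 2 percentage points of each other.

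Further copies had fewer sites. PMF1, a kinetochore protein, held 14 sites in sequence resembling the 45S spacer upstream of 18S, at chr1:156216671-156216785, with 8.31, 7.05 and 8.55%. PID1, an adaptor with a phosphotyrosine-binding domain, held 12 in a 28S copy at 10.0, 9.67 and 10.6%. EYA4, a transcriptional coactivator with phosphatase activity, held 11 in a 28S copy at 6.68, 6.75 and 7.49%.

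Of the loci with a match, 27 could be aligned in full or in part, 21 to the 45S transcript and 6 to SNORD3A, all in the sense direction of the structural RNA. By part of 45S, 15 lay in 28S, 4 in 18S and 2 upstream of 18S. Of 132 sites aligned to 45S, 127 had the same base there, and of 43 aligned to U3, 39 did.

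The U3 copies could be compared base by base with SNORD3A itself, since 34 of their sites faced a base listed there. Over those sites the median T/N was 10.3% in the copies and 1.94% at the facing SNORD3A bases. The copy bases were chosen as called sites, while the facing bases only had to be listed. That choice favours a higher T/N in the copies, here and in the comparisons below. ZBTB44 and CEP85 shared 10 U3 positions, 55.6% of the ZBTB44 sites and 62.5% of the CEP85 sites. At U3 position 61, counted from the 5′ end of SNORD3A, T/N was 35.9, 38.1 and 32.6% in ZBTB44 and 24.1, 23.4 and 22.3% in CEP85, while the SNORD3A base had 2.27% ± 0.930 (SD, n = 3). At position 57 the means were 17.4% ± 1.15 and 16.2% ± 0.969 against 1.78% ± 0.257 (SD, n = 3). Of 9 shared positions listed in SNORD3A, both copies lay above it at 7. How the aligner divided reads between U3 and its copies was not tested.

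**Figure D4:**
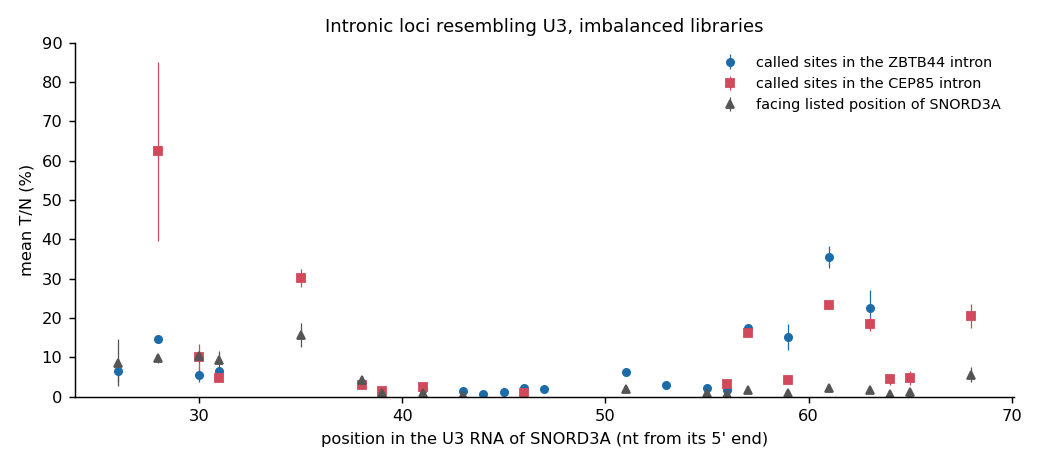
Mean T/N in percent over 3 imbalanced replicates (bars, SD) at called sites of the U3-like loci in ZBTB44 (circles) and CEP85 (squares), and at the facing listed bases of SNORD3A (triangles), against the position in U3 from its 5′ end. At position 61 the loci reached 35.5 and 23.3% against 2.27% in SNORD3A.

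Among called sites G was the most frequent base, with 351 sites or 64.3% (Wilson 95% interval 60.2 to 68.2%), followed by 105 A (19.2%) and 90 C (16.5%). Of the uncalled positions of depth 10, 52.2% were G. The listed imbalanced positions were 55.0% G, 25.1% A and 20.0% C, and the listed balanced ones 37.4% G, 33.6% A and 29.0% C. A U on both sides (UNU) flanked 244 called sites, or 44.7% (Wilson 95% interval 40.6 to 48.9%), against 34.2% of the uncalled positions of depth 10 and 13.9% of the balanced positions. At G the UNU share was 56.7% of called sites and 43.0% of uncalled positions. At A it was 22.9 and 22.8%, and at C 23.3 and 26.6%.

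Taken over all depths, base and neighbours differed most between sites with and without a structural match. Of the 366 unmatched sites 76.8% were G (Wilson 95% interval 72.2 to 80.8%) and 58.5% lay in UNU. In rRNA copies 40.5% were G and 12.2% lay in UNU, and in snoRNA copies 34.9 and 32.6%. The unmatched sites in UGU, 185 in all, had a median T/N of 19.1%, and the 96 other unmatched G sites had 16.2%. UUGUU was the most frequent 5-mer, at 33 called sites (6.04%) and 354 uncalled positions (2.80%), followed by UUGUA at 25 sites (4.58%, against 1.85%).

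The G share of unmatched called sites fell with depth. It was 81.8% at a lowest depth of 10 to 19, 72.7% at 20 to 49 and 60% at 50 or more. The uncalled unmatched positions had 54.1, 41.8 and 47.9% in the same bands. The UNU share of unmatched called sites was 64.6, 55.8 and 20% in these bands, against 35.9, 27.7 and 20.8% of uncalled unmatched positions. At called sites with a match it was 8.33, 12.7 and 19.5%. The UNU shares of matched and unmatched called sites were thus nearly equal in the deepest band. That band held 20 unmatched called sites, 14 of them in FGL1, so it describes few introns.

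The same shares were taken in the site sets of single replicates, where replicates can be compared. G made up 56.4, 58.5 and 55.1% of deep intronic sites passing in replicates 1, 2 and 3, against 54.8, 55.4 and 54.3% at intron edges, a difference of 1.85 ± 1.15 percentage points (SD, n = 3; exact paired permutation test, two-sided, p = 0.25). UNU made up 39.6, 40.5 and 38.3% against 36.3, 36.0 and 34.1%, a difference of 4.01 ± 0.600 points (exact paired permutation test, p = 0.25). Deep intronic positions were higher in 3 of 3 replicates in both. Within deep introns, UNU made up 40.6, 41.8 and 38.8% of the passing positions without a match and 17.7, 17.8 and 18.01% of those with one. The smallest p that 3 pairs allow is 0.25, so none of 16 such comparisons could pass 0.05, and adjusted by Benjamini-Hochberg the smallest was 0.267.

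**Figure D5:**
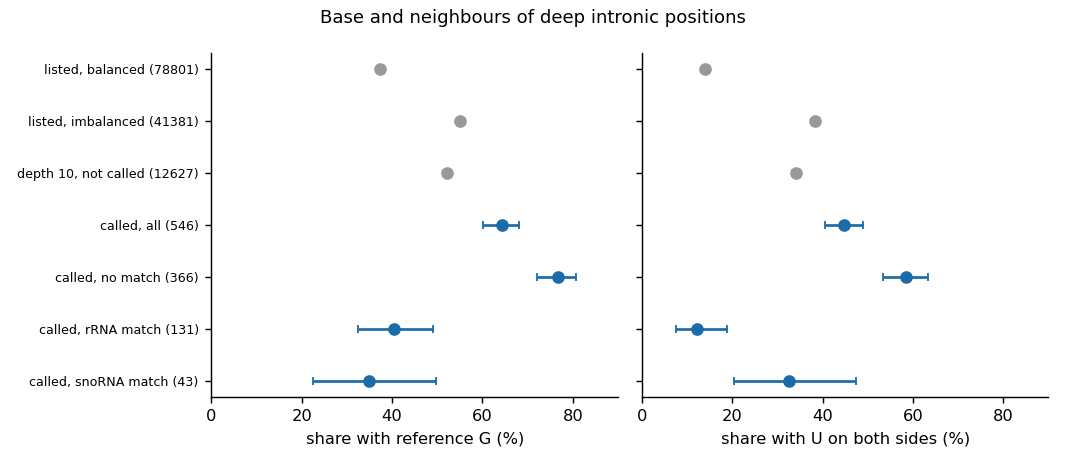
Share in percent of reference G (left) and of positions with U on both sides (right) among deep intronic positions, for listed and uncalled positions (grey) and called sites by structural RNA match (blue, bars are Wilson 95% intervals), with the number of positions in brackets. Unmatched called sites reached 76.8% G and 58.5% UNU.

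The 2054 positions listed in both tables were compared as a description. A position entered the imbalanced table with 3 reads with T in 1 library and the balanced table with 1, so members were admitted partly by a high imbalanced T/N, which largely sets the direction of the difference and lifts both levels above those of all covered bases. The summed T/N was 13.6, 13.3 and 14.9% in the imbalanced libraries and 5.61, 5.41 and 5.55% in the balanced ones, a difference of 8.42 ± 0.769 percentage points (SD, n = 3). With the 429 positions of a balanced T/N of at least 10% in any library left out, a choice that uses the balanced values and so gives no test, the 1625 others had 11.03% ± 0.875 against 1.46% ± 0.0534. G reached 12.4% ± 0.523, A 9.79% ± 1.57 and C 8.98% ± 1.37 there.

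Depth enters that comparison too, so deep introns were set against intron edges at positions with at least 50 reads in all imbalanced libraries. This band has no upper bound and depth was not matched within it, so the part of depth in the difference was not tested. The summed T/N was 5.33, 5.15 and 5.70% at 274 deep intronic positions and 3.72, 3.87 and 3.799% at 260 edge positions, a difference of 1.60 ± 0.308 percentage points (SD, n = 3; exact paired permutation test, p = 0.25). Without structural matches it was 6.84, 6.72 and 6.25% at 68 positions against 3.52, 3.67 and 3.56% at 185. The 68 positions came from 4 genes. Deep introns lay above the edges in 3 of 3 replicates in each case, while the called share was lower in deep introns, 48.5 against 60.8%, and 29.4 against 61.1% without structural matches.

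Tested position by position with edgeR, 76 of 869 deep intronic positions in both tables with a depth of 10 in all 6 libraries had a higher T/N under imbalanced dNTP (adjusted p under 0.05), or 8.75%, against 73.9% of all 32284 positions tested. A lower T/N was found at 1, but the same listing rule admitted positions by their reads with T in the imbalanced libraries, so the excess of higher over lower is partly set by it. The median fitted log2 difference in the odds of a T was 2.63 for deep intronic positions and 3.94 for all. Depth differed between the sets, so shares were also taken by band of lowest depth. From 10 to 19 reads 5.54% of deep intronic and 10.1% of all positions passed, from 20 to 49 20.0 and 34.2%, and from 50 on 37.5 and 90.3%, the first of these resting on 8 positions.

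By gene, 15 of 166 tested positions passed in TGFBR2, 14 of 53 in FGL1, 5 of 84 in HLF, 4 of 58 in EML4, 4 of 25 in CDC7 and 0 of 12 in EHBP1. The strongest lay in an 18S copy in ANKRD30BL at chr2:132255179, an A read as T in 45 of 61, 34 of 49 and 32 of 47 imbalanced reads and in 5 of 85, 1 of 57 and 2 of 64 balanced reads (log2 difference 5.88, SE 0.74, edgeR adjusted p = 1.01e-14). In AFP the C at chr4:73446280, in capitals in the window above, was read as T in 7 of 28, 5 of 20 and 9 of 49 imbalanced and 1 of 54, 0 of 39 and 0 of 50 balanced reads (log2 difference 4.88, SE 1.41, edgeR adjusted p = 0.000999). In TGFBR2 the G at chr3:30612048 had 5 of 31, 5 of 34 and 6 of 49 against 1 of 82, 0 of 59 and 0 of 75 (log2 difference 4.69, SE 1.40, edgeR adjusted p = 0.0015). The imbalanced and balanced values did not overlap at any of the 3. Each was also a called site, with a T/N over 3-fold its input in every replicate, so their choice largely set this. Of the 42 tested positions that were also called by the criteria, 33 passed. The count of 76 rested on all 3 replicates, since it was 5, 11 and 3 without replicate 1, 2 and 3, and it depended on the model, with 295 without the replicate block and 161 with DESeq2.

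A few called sites carried T in most reads. Of the 31 with a mean T/N of at least 45%, 23 had no balanced position within 100 nt, against 58 of the 515 others, and 13 were A. In 12 sites T/N was at least 90%, and 10 of these had neither a structural match nor a nearby balanced position. For such sites no input reads were listed that could tell a sequence difference of the cell line from a misread, which was not tested.

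At a depth of at least 50 in all imbalanced libraries, the called G with the highest T/N was the ZBTB44 base at U3 position 61 described above, followed by 1 in CEP85 at 27.6, 30.9 and 31.9% and 1 in PMF1 at 22.5, 29.5 and 36.1%. Among A, a 28S-like base in SLCO5A1, of the organic anion transporter family, had 64.9, 73.7 and 62.1%. The A at chr1:112947908 in SLC16A1, the lactate transporter MCT1, had 50 of 87, 62 of 84 and 36 of 69 reads with T, and SLC16A1 had 0 listed balanced deep intronic positions. A U3-like A in VPS13B had 25.7, 33.3 and 24.0%. Among C, the highest was in GTF2H3, a subunit of TFIIH, at 22.3, 10.7 and 20.5%, followed by PMF1 at 16.9, 16.1 and 19.4% and SLCO5A1 at 16.9, 6.45 and 18.3%. The A sites of SLCO5A1 and SLC16A1 lay above each of these C sites in all 3 replicates, while the C sites overlapped.

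Called sites lay nearer to splice sites than listed positions. Their median distance was 2738 nt, with quartiles of 1849 and 7419 nt, against 5926 nt for all listed imbalanced positions. Of unmatched positions with a depth of 10, 4.19% were called from 1000 to 2000 nt, 2.93% from 2000 to 5000, 2.47% from 5000 to 10000, 1.96% from 10000 to 50000 and 1.52% beyond, the last from 3 called sites. With structural copies included the shares were 5.68, 4.17, 4.04, 2.54 and 5.88%, so the farthest bin, with 14 called sites, was then the highest. Depth moved with distance, with a median lowest depth of 9 reads in the nearest bin, 8 in the next and 7 in the 3 farther ones, and its part in the trend was not tested.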

How the data were processed

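Nm-mut-seq libraries of caRNA from HepG2 cells were made by the submitters in 3 replicates, each with balanced and imbalanced dNTP. Per the submitters' processing notes and the methods, reads were trimmed with cutadapt, collapsed by molecular identifier, mapped to hg38 with TopHat2 (up to 3 mismatches and 4 places per read), and bases at mutated positions were tallied. Tool versions are not given in the sources used here. The authors deposited raw read counts of A, C, G and T per position and strand, 1 table per dNTP condition, and no value was normalized. A read with more than 3 T misreads would have been lost, which can lower T/N where sites crowd.

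Positions were annotated with GENCODE release 44. Every position of the imbalanced table held 5 or more reads in each of its 3 libraries and 3 reads with T in at least 1, and in the balanced one 5 reads in each and 1 read with T in at least 1 sufficed. Groups came from the titles. Sites were called as described in the text, without the spike-in background of the study, which was not used here. The members, gene lists and comparisons were chosen with earlier results of these data known. Named genes were the 15 with most called sites, the 5 with most listed positions in each table, SEC14L1, the 5 largest loci and, per base, the 3 called sites of highest T/N at a depth of 50. Other genes were picked after their values were seen, as were the printed windows. Some items are not reported here.

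Mutated and unmutated read counts were tested with edgeR 4.0.16 (quasi-likelihood, R 4.3.3), with an effect for each library and the replicate number as a block, over 32284 positions with Benjamini-Hochberg adjustment. DESeq2 1.42.0 was an alternative. Per the labels, ligated RNA was split between both conditions, and libraries of 1 replicate number were taken as parts of the same RNA. Depth deviations at 869 deep intronic positions correlated at 0.00908, 0.114 and 0.0725 within these pairs and at -0.131 to 0.077 across them, so the depths alone do not show the pairing. On simulated counts at those 32284 positions, 41% of 100 positions changed 2-fold and 85% of 100 changed 4-fold were recovered. The counts were binomial, with a baseline from the imbalanced T/N and no further spread between replicates. A lowest depth of at least 50 was reached by 24432 of those positions, but by 8 of the 869 deep intronic ones. The recovered shares therefore do not describe deep introns. Structural matches and genome copies were found with blastn 2.17.0. Summed T/N and shares were compared over replicates with exact paired permutation tests (scipy 1.17.1). With 3 pairs, p was 0.25 in these tests wherever all differences had the same sign, whatever their size. Equal counts between 2 libraries were found at no more than 3.85% of positions, so no library was counted once for another. Intervals of shares are Wilson intervals.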

Additional observations from a re-analysis of the deposited data

How the results depend on the processing

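The count of called deep intronic sites, 546, was 342 at a depth of at least 20, 133 at 50, 326 at a T/N of at least 0.1, 45 where the input had to be listed and 184 over 5000 nt from splice sites. It ranged from 994 to 1757 without 1 replicate, since fewer libraries had to pass. With loci joined up to 1000 nt there were 172, and their number was 113 at a depth of 20, 17 at 50, 35 with listed input, 106 over 5000 nt, and 543 to 996 without 1 replicate. The G share, 64.3%, was 54.7% at a depth of 20, 36.8% at 50, 69.6% at a T/N of at least 0.05, 72.1% at 0.1, 75.6% with listed input, 76.8% without structural RNA copies and 66.3 to 69.6% without 1 replicate. The UNU share, 44.7%, was 34.8, 19.5, 49.6, 53.4 and 58.5% under the first 4 of these and without copies, and 47.2 to 51.8% without 1 replicate.

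Alternatives chosen after seeing the data gave 69.5% G and 51.7% UNU without sites copied elsewhere in hg38, and 68.6 and 49.9% with a balanced position within 100 nt. Without structural RNA copies, a depth of 20 gave 174 sites in 86 loci with 71.3% G and 51.7% UNU, and a depth of 50 gave 20 sites in 4 loci with 60% G and 20.0% UNU. The edgeR count, 76, was 161 by DESeq2, 43 at a depth of 20, 15 over 5000 nt and 3 to 11 without 1 replicate. Without the replicate block, which pairs the libraries of 1 number, it was 295. The differences in summed T/N kept their direction under each alternative run. For single genes, the number of called sites moved by more than 1.5 times in 122 of 240 alternatives. Apart from fewer libraries or positions tested, the cause of these changes was not tested. Depth limits what these introns can show, as 28208 of 41381 imbalanced positions had under 10 reads in some library.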

Other observations

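In the balanced table, 96.4% of deep intronic positions rested on 1 read with T over the 3 libraries. A further 1109 positions, 1.41%, had a T/N of at least 10% in all 3 balanced libraries, 630 of at least 40% and 289 of at least 90%. Of the 1109, 191 were also listed in the imbalanced table, 181 of them with at least 10% in all 3 libraries there, and 0 were called.

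Within genes of a summed imbalanced deep intronic depth of at least 3000 reads, 82 in all, replicate 3 gave a median 41.4% of the reads, from 24.5 to 45.6%. The lowest shares were in GTF2H3, 24.5%, and ZBTB44, 26.1%, both of which hold a U3 copy.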
